A study of Caenorhabditis elegans with 2 samples.

Results

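The cuticle collagen genes of Caenorhabditis elegans were examined for peaks of PHP-3, a Hox protein of the posterior group. Members were the protein-coding genes of the Ensembl WBcel235 annotation with a col name, or with 1 of the dpy, rol, sqt, bli and lon names that belong to collagens. This gave 176 of 19973 protein-coding genes. They comprised 156 col genes, 6 furrow collagens (dpy-2, dpy-3, dpy-7, dpy-8, dpy-9 and dpy-10), 3 strut collagens (bli-1, bli-2 and bli-6) and 11 other body-shape collagens. The chromatin came from whole L4 larvae of strain RW12213, grown for 48 hours after synchronisation by bleaching and starvation as L1 larvae. The allele, st12213[php-3::TY1::EGFP::3xFLAG] III, was a CRISPR insertion that tags php-3 at its own locus, and a GFP antibody recovered the tagged protein. There were 2 biological replicates of this 1 strain and stage, and no other genotype, stage or treatment was analysed here, so no groups were compared. Whole larvae mix all tissues, so the share of cells bound at a site and the strength of binding in each cell cannot be told apart.

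The cuticle is the extracellular coat of the worm, rebuilt at every moult by the epidermis beneath it. Its main proteins are small secreted collagens, whose central part repeats a glycine followed by any pair of residues, often proline, so that 3 chains wind into a triple helix. Furrow collagens form the circumferential rings of the body, strut collagens link the layers of the adult cuticle, and mutations in the others make worms short, long or twisted. Hox proteins bind short sequences in DNA and set regional identity along the body axis.

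The peak lists set the limits of what follows. The larger series-wide list, made from both replicates and kept at a score of at least 830, held 3559 peaks with a median signal value of 120. The signal value is the height of a peak as the authors' lists give it. The ranked list behind it held 96056 peaks, most of which missed that score, with a median of 28.5. The ranked lists of replicate 1 and replicate 2 held 50229 and 59577 peaks, with medians of 22.1 and 22.2. A summit is the position a list names within a peak, and a promoter window ran from 1000 bp upstream to 200 bp downstream of a gene's outermost annotated 5′ end. Signals given for a replicate at a peak are those of the highest overlapping peak in its ranked list, and signals given for a promoter window or a coding sequence are those of the strongest peak with its summit there. Read depth is unknown.

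By 3 rules together, 24 of 176 collagen genes (13.6%) had a thresholded peak, against 14.9% of all coding genes. In all, 26 thresholded peaks were assigned to these genes, because the summit lay in the promoter window or the coding sequence or had the collagen's 5′ end as the nearest of a coding gene. Of these, 4 summits lay in promoter windows, 13 in the gene's own coding exons (1 of them in both) and 10 in neither. The split depends in part on the rules that gathered them. By nearest 5′ end alone, 2 of 21 collagen summits lay in the promoter window of any gene, against 1403 of 3538 for other coding genes. Windows of 101 bases around 8 summits, chosen to show the promoter peaks of col-38 and col-71, the strongest peak, the single summit with a posterior Hox match, a tRNA gene and coding repeats, read as follows on the strand of the collagen gene (ce11, RefSeq genome). In the first 4, capitals mark the posterior Hox form, which is TTTATGA with the variant TTTATGG, and the GATA form, which is TGATAA with the variant AGATAA. Both were read on either strand, and only the sqt-3 window held a match. In col-98, capitals mark GTTCNANNC, the B box inside tRNA genes, on either strand. In the last 3, they mark GGNCC, which reads the same on both strands and can arise where a glycine codon precedes a proline codon.
col-94, chrIII:10989619-10989719, minus strand: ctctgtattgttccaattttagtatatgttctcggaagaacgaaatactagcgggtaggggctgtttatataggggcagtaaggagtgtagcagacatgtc
col-38, chrII:8569489-8569589, minus strand: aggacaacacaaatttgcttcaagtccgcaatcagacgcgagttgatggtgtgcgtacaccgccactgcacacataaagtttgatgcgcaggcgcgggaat
col-71 (promoter), chrII:3502827-3502927, minus strand: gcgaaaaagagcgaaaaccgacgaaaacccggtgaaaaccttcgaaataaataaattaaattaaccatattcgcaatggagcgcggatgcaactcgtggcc
sqt-3, chrV:12354457-12354557, plus strand: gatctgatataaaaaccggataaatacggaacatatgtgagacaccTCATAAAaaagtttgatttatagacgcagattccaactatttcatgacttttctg
col-98, chrIII:13016099-13016199, plus strand: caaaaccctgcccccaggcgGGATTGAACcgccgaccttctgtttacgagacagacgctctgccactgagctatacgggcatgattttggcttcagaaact
col-133, chrIV:14098677-14098777, minus strand: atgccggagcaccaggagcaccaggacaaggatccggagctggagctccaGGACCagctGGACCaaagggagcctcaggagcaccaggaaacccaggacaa
col-130, chrIV:12427735-12427835, minus strand: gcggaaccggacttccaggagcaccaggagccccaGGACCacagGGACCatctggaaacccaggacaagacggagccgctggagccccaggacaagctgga
bli-2, chrII:5651896-5651996, minus strand: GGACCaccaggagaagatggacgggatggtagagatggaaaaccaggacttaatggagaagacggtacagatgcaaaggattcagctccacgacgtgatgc

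Over all 26 summits, a posterior Hox form stood within 50 bp of 1, against 8.43% of the 3559 thresholded summits. A GATA form stood within 50 bp of 0 of 26, against 35.4%, and the tRNA B box of 1, against 7.53%. GGNCC, which was added to the motifs after the sequences were seen, stood within 50 bp of 12 of 26, against 8.23%. All 12 were summits in the collagens' own coding exons, whereas 327 of the 3559 thresholded summits lay in any coding sequence. In the 300 bp around the 5′ end (250 upstream, 50 downstream), the Hox form was in 24 of 176 collagen promoters (13.6%), against 14.7% of all coding genes. The GATA form was in 92 (52.3%), against 44.6%. The B box was in 17 (9.66%), against 8.78%, and GGNCC in 33 (18.8%), against 16.8%. The windows at summits were shorter than those at promoters, and the median GC content around the 26 collagen summits was 56.4%, against 41.6% around all thresholded summits.

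**Figure D1:**
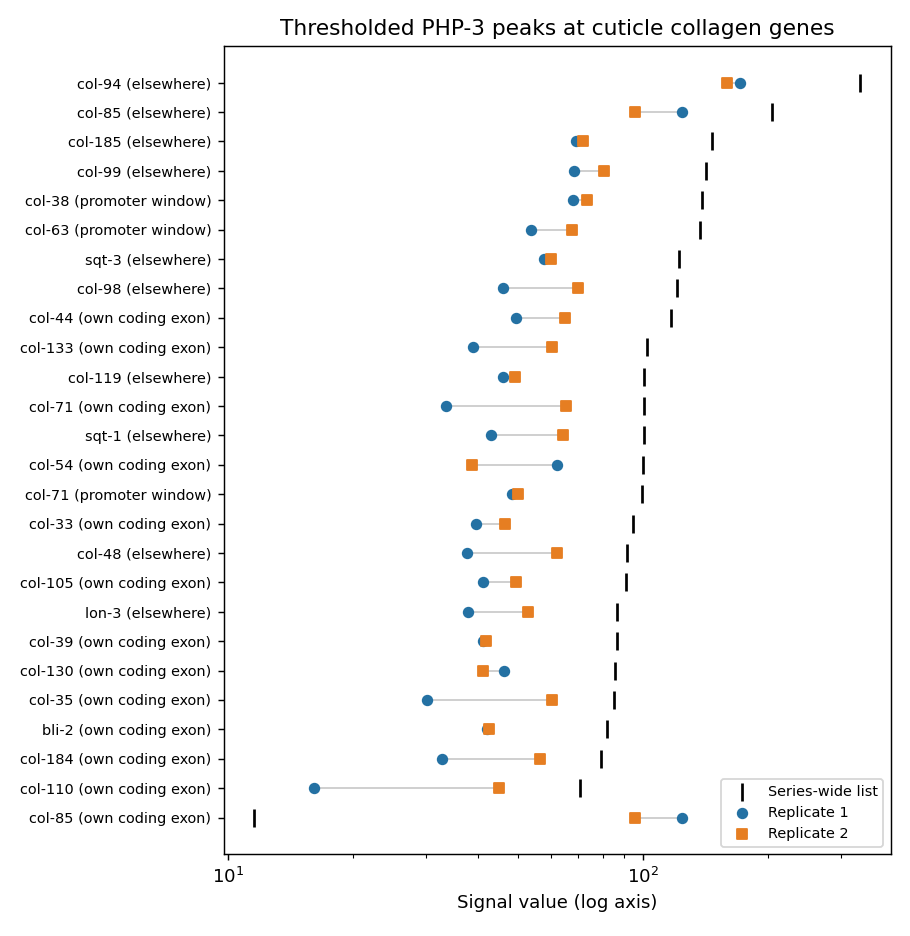
Signal value (log axis) of the 26 thresholded peaks at cuticle collagen genes, 1 per line, ordered by the series-wide list (bar), with replicate 1 (circle) and replicate 2 (square); the bracket gives the place of the summit. Replicate 2 was the higher of the pair at 21 of 26, and the lowest line, the weaker peak of col-85, takes its replicate values from the peak it overlaps. The same share over all thresholded peaks is not given here, and the replicates' own thresholded lists had medians of 81.4 and 85.9.

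In the promoter windows, 4 of 176 collagen genes (2.27%) had a thresholded summit, against 7.95% of all protein-coding genes. The conservative series-wide list gave the same count of 4, against 7.82%. Neither replicate's own thresholded list had any: 0 of 176 in replicate 1, against 4.22% of all coding genes, and 0 of 176 in replicate 2, against 4.69%. The gene with the highest of these was col-38 (on chromosome II), with 67.8 in replicate 1, 73.6 in replicate 2 and 139 in the series-wide list. Its summit lay 451 bp upstream of its 5′ end and 388 bp upstream of that of rpl-5, a divergent ribosomal protein gene, so the peak was in the windows of both genes. The peak of col-63, on chromosome I, had 53.9 in replicate 1, 67.5 in replicate 2 and 137 series-wide. Its summit lay 638 bp upstream, within the 3′ UTR of the homeobox gene ceh-8. The promoter peak of col-71 had 48.5 in replicate 1, 49.98 in replicate 2 and 99.6 series-wide, and its summit stood 307 bp upstream of col-71 and 91 bp upstream of Y49F6B.2. The fourth, at 187 bp downstream of the 5′ end of col-85, had 11.6 series-wide. It overlapped a stronger peak of the same gene, and a tRNA gene lay 94 bp away. Replicate 2 was the higher at col-38, col-63 and col-71.

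The ranked lists add the peaks that missed the threshold, most of them weak. A ranked summit of any strength lay in 131 of 176 collagen windows (74.4%), against 65.8% of all coding genes. The share with a signal of at least 25 was 56.2% in collagens, against 52.7%. At a signal of at least 50 it was 13.6% (24 genes), against 24.1%, and at 100 or more it was 1.14% (2 genes), against 6.12%. The strongest signal per window had a median of 35.9 over the 131 collagen genes with a summit (quartiles 25.01 and 46.2), against 41.4 over 13149 coding genes (27.9 and 60.9). In replicate 1 alone, 78 of 176 had a summit (44.3%), against 45.9%, with medians of 23.0035 for collagens and 27.2 for all coding genes. In replicate 2 alone, 80 did (45.5%), against 50.7%, with medians of 24.3 and 28.1 in the same order. Both replicates had a summit at 50 collagen genes (28.4%), against 33.5% of coding genes. Collagen medians were below those of all coding genes in the series-wide list and in both replicates, whereas the share with any summit was above that of all coding genes in the series-wide list and below it in each replicate. The highest −log10 q-value per window had a median of 0.0760 in collagens, against 0.102.

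Of the 131 windows with a ranked summit, 4 (3.05%) passed the score limit, against 12.1% of the coding windows with one. Apart from the 4 thresholded windows, the strongest peaks of the other 127 windows reached at most a signal of 76.9 and a score of 527, under the limit of 830. Of the 131 strongest summits, 102 lay upstream and 29 downstream of the 5′ end, and 14 also lay in the window of another gene, among them the divergent pair col-3 and col-117 (25.01, 1 shared summit). In the windows of that pair, 53.7% of the 36-base words occur elsewhere in the genome, against a median of 0% over all 176 collagen windows. The part of repeated sequence in the shared summit was not tested.

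**Figure D2:**
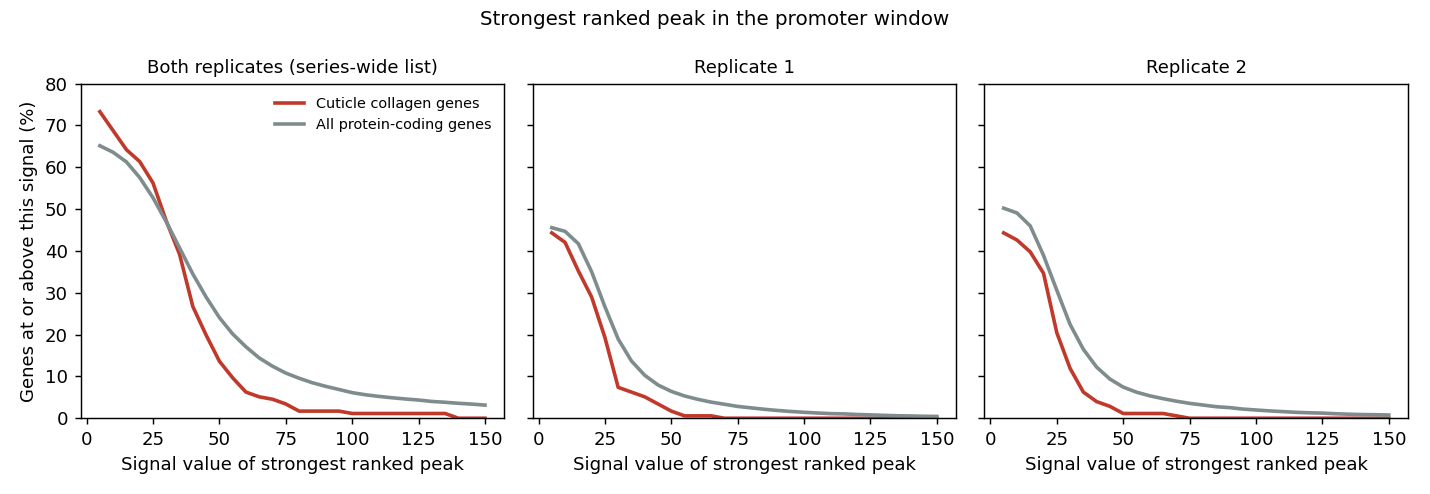
Share of genes (%) whose strongest ranked peak in the promoter window reaches the signal value on the x axis, for 176 cuticle collagen genes and all 19973 protein-coding genes, in the series-wide list and in each replicate. At a signal of 50 the series-wide shares are 13.6% for collagens and 24.1% for all coding genes.

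The highest promoter values below the threshold, among windows with a summit in both replicates, belonged to dpy-17, col-42, col-72, rol-6, col-65, col-138 and col-44. The dpy-17 peak had 24.5 in replicate 1, 46.3 in replicate 2 and 76.9 series-wide, with its summit 111 bp inside the gene. The rol-6 peak had 50.2, 19.8 and 74.7, with its summit 2 bp from the 5′ end. Both series-wide summits lay in the genes' own coding exons. Replicate 2 was the higher at dpy-17 and replicate 1 at rol-6. The summits of col-72 (75.3) and col-65 (70.6) lay 564 and 548 bp upstream in intergenic sequence. Those of col-42 (75.4) and col-138 (65.8) lay in the genes' first coding bases, 33 and 14 bp from the 5′ end. The summit of col-44 (61.3) stood 645 bp upstream, in a coding exon of col-9. Scores at these genes ran from 80 at col-138 to 527 at col-72, well under the limit of 830.

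Among the 20 body-shape collagens, 0 had a thresholded promoter summit, against 2.27% of all collagens and 7.95% of all coding genes. A ranked one stood at 17 of 20, against 74.4% and 65.8% in the same order. In both replicates it stood at 5 of 20, against 28.4% and 33.5%: bli-1, dpy-7, dpy-17, rol-6 and rol-8. The furrow collagens had series-wide promoter signals of 42.7 at dpy-7, 32.7 at dpy-3, 27.1 at dpy-10, 9.13 at dpy-8 and 5.37 at dpy-9, and none at dpy-2. Only dpy-7 had a value in both replicates, 25.02 in replicate 1 and 28.5 in replicate 2. The other 5 each lacked a value in at least 1 replicate, so their order cannot be set against replicate spread. The strut collagens had 28.9 at bli-2 (25.7 in replicate 2 only), 20.2 at bli-6 (45.1 in replicate 1 only) and 9.91 at bli-1 (10.9 in replicate 1 and 8.88 in replicate 2). Besides dpy-17 and rol-6, the other body-shape collagens had 37.4 at sqt-1, 37.0 at dpy-5, 33.8 at sqt-2, 29.3 at lon-3, 23.7 at sqt-3, 18.2 at rol-8 and 14.5 at dpy-13. The windows of dpy-4 and dpy-14 held no ranked summit in any of the 3 lists. Nor did those of col-19 and col-7, which are known as collagens of the adult cuticle. The ranked list that pairs the replicates did place a summit at col-19 (26.8) and at dpy-2 (14.1). The window of col-99, which encodes a transmembrane collagen, held 18.6, 21.4 and 39.2.

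By nearest 5′ end, 20 of 176 collagen genes (11.4%) had a thresholded summit, against 13.3% of all coding genes, with 21 summits in all. Of the 21, 16 (76.2%) lay downstream of the collagen's 5′ end and 5 upstream, whereas of 3538 summits nearest to other coding genes 41.8% lay downstream. Inside the nearest gene itself stood 12 of 21 (57.1%), against 29.6%, and past its 3′ end 4 of 21 (19.05%), against 12.2%. Their median signal was 100, against 120 for the other summits, and 14 of 21 were below the list's median. The own lists of the replicates held 6 of them in replicate 1 and 8 in replicate 2, both held 5, and 12 (57.1%) were in neither, against 35.99% of all 3559 thresholded peaks. Over all thresholded peaks, 46.1% were in the list of replicate 1 and 53.2% in that of replicate 2, against which 6 is 28.6% and 8 is 38.1%. Measured from each gene, the nearest thresholded summit was a median of 9395.5 bp from a collagen's 5′ end, against 12729 bp over all coding genes, and it was within 2000 bp at 14.2% of collagens, against 14.1%.

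The strongest of them did not stand in a collagen promoter. The highest, at 172 in replicate 1, 160 in replicate 2 and 334 series-wide, lay 1796 bp upstream of col-94, inside an intron of dhc-4, a dynein heavy chain gene. Next was the stronger peak of col-85, with 124, 95.6 and 204, whose summit stood in an intron of col-85 and 33 bp from a tRNA gene. The peak upstream of col-185 (68.9, 71.7 and 147) lay 3492 bp away in intergenic sequence. Those at col-94, col-85, col-185 and col-99 were the peaks that both replicates' own lists held. At col-99 (68.1, 80.5 and 142) the summit fell within a tRNA gene in its intron. A tRNA gene also held the summit 2859 bp upstream of col-98 (46.0, 69.8 and 121), shown above, and lay 188 bp from the summit past the end of sqt-1 (43.1, 64.3 and 101) and 33 bp from that of col-54 (62.0, 38.7 and 100). In all, 6 of the 21 summits (28.6%) were within 1000 bp of a tRNA gene, against 7.05% of all thresholded summits. The 6 include both overlapping peaks of col-85, which lie beside the same tRNA gene. The part of tRNA genes in these peaks was not tested.

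Others lay in or beside neighbouring genes. The summit near sqt-3 (57.8 in replicate 1, 59.99 in replicate 2 and 122 series-wide) stood 187 bp past the end of the gene, and it alone held the posterior Hox form, read there as TCATAAA. The summit near col-119 (46.1, 49.3 and 101) lay in an intron of pdzd-8, and that near col-48 (37.8, 62.3 and 91.8) in an intron of mek-2, a MAP kinase kinase gene. The summit 1111 bp upstream of lon-3 (38.004, 52.9 and 86.9) lay in an intron of ogdh-2. With a promoter window reaching 2000 bp upstream, 7 collagen genes (3.98%) were marked, against 10.9% of all coding genes, the added ones being col-80, col-94 and lon-3.

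More thresholded summits stood in the collagens' own coding sequence than in their promoters. A thresholded summit stood in the own coding sequence of 13 of 176 collagen genes (7.39%), against 1.49% of all coding genes. In the whole gene body the share was 8.52%, against 5.94%. Besides col-85, the 12 peaks ran from 70.7 to 117 in the series-wide list (median 89.0), all below that list's median of 120. In replicate 1 they ran from 16.2 to 62.0 (median 40.5), where 62.0 belongs to col-54 and comes from an overlapping peak whose summit lay outside its coding sequence. Without col-54 the highest of the other 11 in replicate 1 was 49.4 (median 39.8). The 12 ran in replicate 2 from 38.7 to 65.3 (median 48.1), and replicate 2 was the higher at 10 of 12. Replicate 2's own thresholded list also had the higher median, 85.9 against 81.4. Of all 13, 8 (61.5%) were in the conservative list, against 83.6% of all thresholded peaks and 66.7% of the 327 with a summit in any coding sequence. Replicate 1's own list held 2 of 13 and replicate 2's held 3, and 9 (69.2%) were in neither, against 35.99% of all thresholded peaks and 66.4% of those in any coding sequence. Each had a value in the ranked lists of both replicates.

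Of the 13 coding peaks, 12 were at col genes and 1 at a strut collagen, bli-2. The highest was that of col-44, with 49.4 in replicate 1, 64.9 in replicate 2 and 117 series-wide, followed by col-133 with 39.0, 60.5 and 102. The coding peak of col-71, apart from its promoter peak, had 33.6, 65.3 and 101. The peak of bli-2, a strut collagen gene, had 42.2, 42.6 and 81.9, and its summit also fell in an intron of zyg-1, a centriole kinase gene. The coding summits of col-39 (41.2, 41.9 and 86.8), col-130 (46.2, 41.2 and 85.8) and col-35 (30.3, 60.5 and 85.2) likewise fell within introns of dph-2, ugt-65 and C15A11.2. The others were col-54, col-33 (39.8, 46.7 and 94.9), col-105 (41.2, 49.4 and 91.2), col-184 (32.9, 56.4 and 79.4) and col-110 (16.2, 45.1 and 70.7). The summits of col-44, col-71 and col-33 were closer to the 5′ end of a gene that is no collagen, and col-33 was added to the named genes after its values were seen.

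The ranked lists showed the same placement on a larger scale. A ranked summit stood in the coding sequence of 155 of 176 collagen genes (88.1%), against 59.9% of all coding genes. In replicate 1 this was 131 genes (74.4%), against 42.9%, and in replicate 2 it was 140 (79.5%), against 47.3%. Both replicates had one at 113 collagen genes (64.2%), against 30.5% of all coding genes, and neither had one at 18 (10.2%), against 40.2%. The strongest coding summit per gene had a median of 54.9 in collagens, against 40.6 in all coding genes. In replicate 1 the medians were 29.6 and 25.4, and in replicate 2 they were 31.8 and 26.6, collagens first. Of 125 collagen genes with both a promoter and a coding summit, the coding one was higher at 98 (78.4%), the promoter one at 18 (14.4%), and they were equal at 9. Of 10138 coding genes with both, the coding one was higher at 41.1% and the promoter one at 50.2%. The lengths of coding sequences and promoter windows differ, and these counts are not adjusted for that. Of the 45 collagens without a ranked promoter summit, 30 (66.7%) had a coding one, against 26.8% of the 6824 coding genes without one.

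Body-shape collagens followed the pattern, with a ranked coding summit at 19 of 20, against 88.1% of all collagens and 59.9% of all coding genes. Both replicates had one at 15 of 20, against 64.2% and 30.5%. The series-wide values of the 19 ran from 31.7 at sqt-1 to 81.9 at bli-2, given above. After bli-2, the highest with a value in both replicates were dpy-3, dpy-17, dpy-10 and dpy-13. The value of dpy-3 was 38.03 in replicate 1, 44.1 in replicate 2 and 79.0 series-wide, and that of dpy-17 was 25.4, 46.3 and 76.9. The series-wide summit of dpy-17 is the one given above for its promoter window, which reaches 200 bp downstream of the 5′ end. The value of dpy-10 was 19.1, 39.7 and 73.6, and that of dpy-13 was 38.6, 29.5 and 65.1. Both replicate values of dpy-3 overlapped those of the thresholded coding peaks. So did those of dpy-10 and dpy-17 in replicate 2 and that of dpy-13 in replicate 1. By summits inside coding sequence, the lowest of the 12 with a value in replicate 1 was col-110 at 26.9. Both dpy-10 and dpy-17 were below it. Replicate 2 of dpy-13 was below all 12. The exception in the series-wide list was dpy-4, which had 35.0 in replicate 1 only.

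Ranked summits were most frequent inside the collagen genes. In the 250 bp upstream of the 5′ end, ranked summits numbered 25 per 100 collagen genes, against 25.1 per 100 coding genes. From 500 to 750 bp downstream they numbered 51.7 per 100 collagen genes, against 25.3. In replicate 1 that bin had 33.0, against 13.2, and the next 250 bp had 37.5, against 13.3, the highest of its collagen bins. In replicate 2 the bin from 500 to 750 bp had 40.3, against 16.0. The thresholded list had its own maximum for all coding genes in the 250 bp upstream of the 5′ end, at 3.35 summits per 100 genes, and there collagens had 0 summits. The highest collagen bins of that list were the 2 from 1750 to 2250 bp downstream, with 5 summits each (2.84 per 100 genes, against 0.776 and 0.791). They lie beyond the median collagen gene length of 1220 bp, but a summit counts for every gene within reach. The coding summits of col-39 and col-44 thus also count at their neighbours col-79 (2097 bp) and col-9 (2157 bp). The coding summit of col-71 lies 1978 bp downstream within its own gene. From 250 to 750 bp and from 1500 to 1750 bp downstream the list had 4 summits in each bin.

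**Figure D3:**
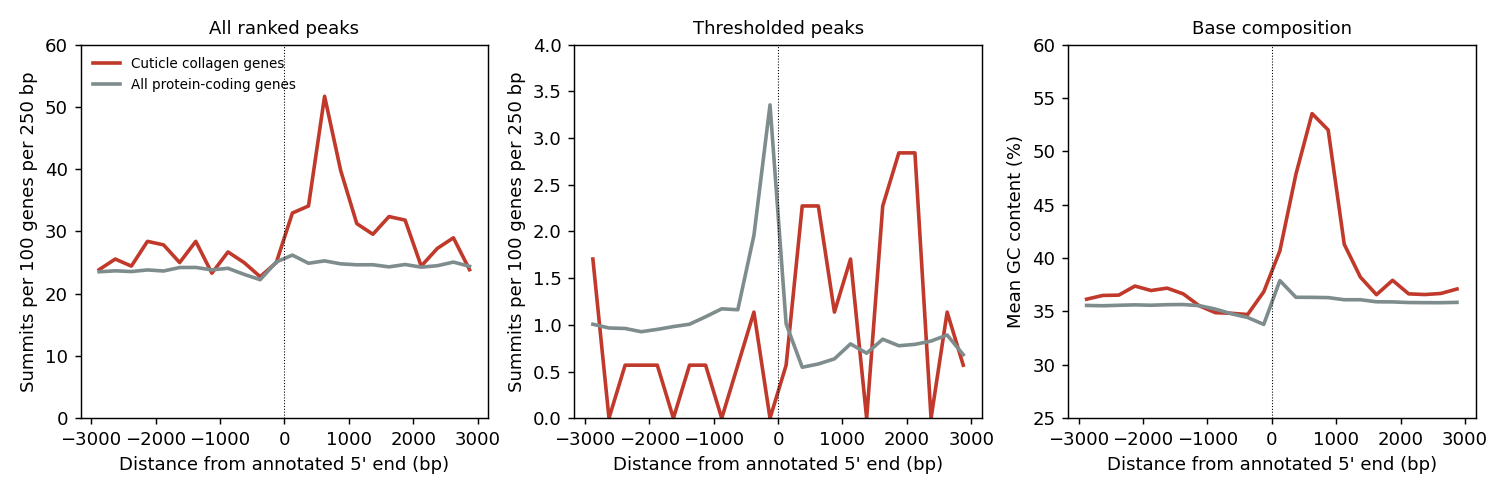
Summits per 100 genes in 250 bp bins by distance from the annotated 5′ end, for all ranked peaks (left) and thresholded peaks (centre), and mean GC content of the same bins (right), for cuticle collagen genes and all protein-coding genes. The collagen curves of ranked summits and of GC content both peak 500 to 750 bp downstream, at 51.7 summits per 100 genes and 53.5% GC. A summit counts for every gene within reach, so it can appear at neighbouring collagens. Thresholded summits number at most 5 in a collagen bin, reached from 1750 to 2250 bp downstream (2.84 per 100 genes). In all coding genes they are most frequent just upstream of the 5′ end.

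Base composition moved with these summits. The mean GC content from 500 to 750 bp downstream was 53.5% in collagens, against 36.3% in all coding genes. The coding sequence of collagens was 54.5% GC, against 42.9% in all coding sequence and 35.4% in the genome. In the 101 bases around the 13 coding summits the median was 63.4%, against 41.6% around all thresholded summits. Of those 3559, only 327 lay in any coding sequence, and the median around the 327 is not given here. Summits per kilobase of coding sequence were 1.86 in collagens, against 1.20 in all coding genes. In replicate 1 they were 1.26, against 0.626, and in replicate 2 they were 1.43, against 0.754. In the thresholded list they were 0.0752, against 0.0132. Repeated sequence was also more frequent, since 12.6% of 36-base words in collagen coding sequence occur elsewhere in the genome, against 3.86% in all coding sequence. Over the words that occur once, the densities of ranked summits were 1.95 in collagens and 1.23 in all coding genes.

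Set beside coding genes of like GC content, collagens had series-wide densities of ranked summits per kilobase that were no higher in any class, while the share of genes with at least 1 such summit was higher in the 3 classes from 45% GC up. Of 176 collagen genes, 148 (84.1%) had coding sequence of at least 50% GC, against 8.32% of other coding genes. At 55% GC and over, ranked summits numbered 2.15 per kb in 88 collagen genes, against 2.17 per kb in 217 other genes. Per gene, 94.3% of those collagens had a ranked coding summit, against 69.1% of the others, over 83.8 and 132 kb of coding sequence. From 50 to under 55% GC the shares per gene were 81.7% and 69.9%, and from 45 to under 50% they were 88% and 74.1%, collagens first. At 55% GC and over, replicate 1 had 1.36 per kb in collagens, against 1.59, and replicate 2 had 1.68, against 1.93. From 50 to under 55% GC there were 1.62 per kb in 60 collagens, against 1.88 in 1430 others, and from 45 to under 50% there were 1.57 in 25 collagens, against 1.67 in 4342 others. In the replicates the order varied: from 50 to under 55% GC replicate 1 had 1.31 in collagens, against 1.21, and replicate 2 had 1.21, against 1.39, while from 45 to under 50% GC replicate 1 had 0.930, against 0.920, and replicate 2 had 1.25, against 1.11. Thresholded summits at 55% GC and over numbered 0.107 per kb in collagens, against 0.136, but from 45 to under 50% GC they numbered 0.0715 in collagens (2 genes), against 0.0198. By gene, 9 of 88 collagens at 55% GC and over had one (10.2%), against 16 of 217 others (7.37%). From 50 to under 55% it was 2 of 60 (3.33%), against 3.22%, and from 45 to under 50% it was 2 of 25 (8%), against 2.28%. Under 45% GC there were 3 collagen genes, with 0.929 ranked summits per kb, against 0.994 in others. The values describe genes grouped by GC content after the profile had been seen, and the part of base composition in the peaks was not tested.

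**Figure D4:**
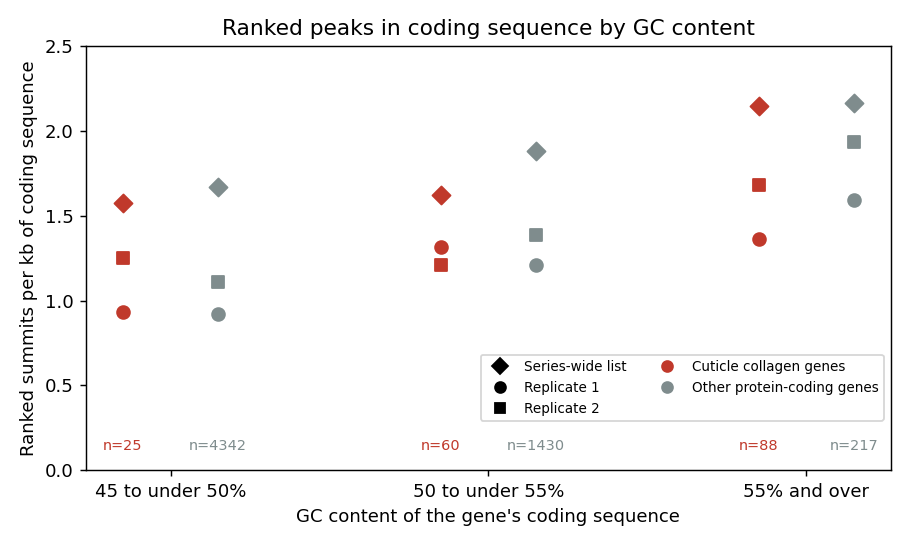
Ranked summits per kilobase of coding sequence, by the GC content of the gene's coding sequence, for cuticle collagen genes (left of each pair) and other protein-coding genes (right), in the series-wide list (diamond), replicate 1 (circle) and replicate 2 (square), with the number of genes below. At 55% GC and over the series-wide densities are 2.15 for collagens and 2.17 for other genes.

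The collagens were spread over all chromosomes. The collagen genes were 45 on chromosome IV, 33 on V, 32 on II, 30 on X, 23 on I and 13 on III. On X, where 10.1% of all coding genes had a thresholded promoter summit, 0 of 30 collagens did, whereas 3 of 32 did on chromosome II, where 8.67% of coding genes did. Ranked summits were in 73.3% of collagen windows on X, against 65.2% of coding genes there, and in 74.7% of collagen windows on the autosomes, against 65.9%. With members within 10000 bp of each other joined, 57 lay in 24 clusters and 119 alone. A thresholded promoter summit stood at 0 of the 57 clustered genes and 4 of the 119 alone, against 2.27% of all collagens and 7.95% of all coding genes. With 4 in all, these counts do not tell the 2 groups apart. A ranked one stood at 75.4% of the clustered genes and 73.9% of those alone, against 74.4% of all collagens and 65.8% of all coding genes. The largest cluster, 5 genes on X from col-167 to col-171, had series-wide promoter signals of 57.5, 33.0, 47.9, 50.4 and 44.8 in that order. Only col-167 (23.3 and 35.2) and col-171 (18.7 and 26.6) had a value in both replicates.

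Over 5 lists of 56 genes, 4 of them on the cuticle and its control and 1 of non-cuticle collagens, 5 genes had a thresholded promoter summit (8.93%) and 8 had a summit nearest to their 5′ end (14.3%), beside the 7.95% and 13.3% given above. Without the non-cuticle collagens the shares were 9.62% and 15.4% of 52 genes. The BMP-like pathway that sets body size had 2 of 12 by promoter and 4 of 12 by nearest 5′ end. They were sma-2, a Smad gene (113 in replicate 1, 164 in replicate 2, 274 series-wide, 834 bp upstream), sma-10, a membrane protein gene (111, 127 and 234, a window shared with srh-282), sma-6, the type I receptor gene (94.5, 86.5 and 185, 3003 bp downstream), and sma-9, a zinc-finger cofactor gene (82.3, 73.0 and 157, 3663 bp downstream). Among 13 collagen-modifying enzymes 1 was marked, dpy-11, a thioredoxin-like gene (48.9, 46.0 and 77.7). Among 13 regulators of the epidermis and moult 1 was marked, myrf-1 (45.5, 92.3 and 135), higher in replicate 2. Among 14 other cuticle and apical matrix genes cut-5, a cuticlin gene, had a promoter summit (57.1, 71.3 and 134). The gene rol-1 was marked by nearest 5′ end only, by a summit 2671 bp downstream (49.1, 40.7 and 86.1). The 4 non-cuticle collagens emb-9, let-2, cle-1 and mec-5 had 0. The peaks of sma-2 and sma-10 were above the promoter peaks of col-38, col-63 and col-71 in both replicates.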

How the data were processed

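ChIP-seq peak lists of PHP-3 in 2 biological replicates of whole L4 larvae were used as deposited, on assembly ce11 per the file listing. Aligner and peak caller: not given in the sources used here. Each of 8 lists gives a signal value per peak, a score scaled by the authors from the irreproducible discovery rate (at least 830 in thresholded lists), and a −log10 q-value by the authors, used only as another ranking. Of the 2 series-wide ranked lists, the one whose input intervals are absent from the replicates' own ranked lists was the main one.

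Genes came from Ensembl release 115 and sequence from the RefSeq genome, both WBcel235, which has ce11 coordinates. Summits were assigned to promoter windows, to the nearest protein-coding 5′ end and to coding exons. A 36-base word counted as repeated if it occurs again on either strand. Interval overlap required 1 bp. Shares are set beside those of all 19973 protein-coding genes. No statistical test was made, since the samples form 1 group, and no interval depends on the unknown depth. The members and lists were chosen with earlier results of these data known. Genes were named by a rule: members with a promoter or nearest thresholded summit, body-shape collagens, the 10 highest ranked promoter windows seen in both replicates, col-19, col-7, col-99, genes sharing a summit and marked pathway genes. The comparison of coding sequence by GC content was added after the data were seen. Functions that assign summits were tested on simulated positions. Python 3.11.15, numpy 2.4.6, pandas 2.3.3 and matplotlib 3.10.9 were used.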

Additional observations from a re-analysis of the deposited data

How the results depend on the processing

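The count of 4 collagen genes with a promoter summit stayed within 1.5 times under 5 of 10 alternatives. It was 0 without replicate 1, against 4.69% of all coding genes, and 0 without replicate 2, against 4.22%. With peaks above the median signal it was 2 (1.14%, against 4.57%), and with 2000 bp upstream 7 (3.98%, against 10.9%). Without summits in the window of a gene outside the collagen list it was 2 (1.14%), with no share over all coding genes computed. The count of 20 genes by nearest 5′ end stayed within 1.5 times under 3 of 7. It was 8 (4.55%, against 8.15% of all coding genes) without replicate 1, 5 (2.84%, against 7.27%) without replicate 2, 7 (3.98%, against 7.77%) with peaks above the median signal and 10 (5.68%, against 9.17%) when genes of every biotype could be nearest. The share was thus further below that of all coding genes in each of these than in the main count, 11.4% against 13.3%. The 131 genes with a ranked promoter summit (74.4%, against 65.8%) became 80 without replicate 1 (45.5%, against 50.7%) and 78 without replicate 2 (44.3%, against 45.9%). The median signal of 35.9 became 24.3 without replicate 1, 23.0035 without replicate 2 and 33.4 with 500 bp upstream, and the median of the highest −log10 q was 0.0760, against 0.102 over all coding genes. Leaving out a replicate here means using the other's own, shorter list; the cause of the other changes was not tested. The coding density, with its alternatives, was chosen after seeing the data: 1.86 summits per kb became 1.43 without replicate 1 and 1.26 without replicate 2. With the thresholded list it was 0.0752. With 2 replicates and unknown read depth, the absence of a peak is no evidence that PHP-3 was absent.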
